A study of Mus musculus with 59 samples.

Results

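The 8 genes described here encode subunits of the neuronal nicotinic acetylcholine receptors: Chrna3, Chrna4, Chrna5, Chrna6, Chrna7, Chrnb2, Chrnb3 and Chrnb4. They were taken by symbol from a table of 24346 gene symbols, and all 8 were found there. Each was followed across 8 groups of mice and set against Th, the gene of tyrosine hydroxylase, which makes the precursor of dopamine and marks dopamine neurons.

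Nicotinic receptors are cation channels that acetylcholine and nicotine open, and each channel is a ring of subunits. Alpha subunits carry the principal face of the binding site and beta subunits complete it in most receptors, whereas the alpha7 subunit (Chrna7) can form a channel alone and alpha5 (Chrna5) and beta3 (Chrnb3) act as accessory subunits. In the ventral tegmental area (VTA) these receptors lie on dopamine neurons, on GABA neurons and on incoming axons, and acetylcholine acts through them on dopamine release.

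RNA was sequenced from the VTA of male mice in 4 paradigms, each with a cocaine and a saline group. The acute groups received cocaine (5 libraries) or saline (6) by injection in the home cage, and the chronic groups received cocaine (6) or saline (6) by repeated home cage injection. The conditioning groups were conditioned with cocaine (6) or with saline (6), and the self-administration groups took cocaine (15) or saline (9) by the intravenous route. The labels name no strain, genotype, age, dose or time of collection, and whether each library came from its own animal is not stated, so the spread behind each p-value may be partly technical. Values are FPKM, fragments scaled by transcript length and library total, a scale on which levels of different genes can be compared. The read depth is unknown.

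The 10 dopamine neuron markers examined had a summed level from 645 to 2621 FPKM in the 35 acute, chronic and conditioning libraries and from 622.6 to 2378 in the 24 self-administration libraries. Pitx3, a transcription factor of midbrain dopamine neurons, was low among them in self-administration, at 0.847 ± 0.458 FPKM (SD, n = 24) against 9.79 ± 5.05 (n = 35) elsewhere. En1 and Lmx1b, 2 other factors of these neurons, were also lower there, at 12.3 ± 5.09 against 26.8 ± 11.6 and at 4.62 ± 1.19 against 6.86 ± 2.30 FPKM. Between self-administration saline and the other saline groups these 3 fell by 2.58 ± 0.22, 1.12 ± 0.25 and 0.61 ± 0.13 on the log2(FPKM + 1) scale (limma, highest adjusted p = 0.000504). In that contrast 27.8% of 13202 genes were called as lower. The rest of the 10 markers were not called (lowest adjusted p = 0.108, Th). Slc6a3 was at -0.017 ± 0.27, Slc18a2 at -0.045 ± 0.26 and Ddc at -0.032 ± 0.23. Drd2 was at -0.059 ± 0.17, Nr4a2 at -0.13 ± 0.096 and Aldh1a1 at -0.11 ± 0.25. Th ranged over 5.56-fold in the 35 libraries and 3.90-fold in the 24. Chat, the enzyme that makes acetylcholine, was at 0.436 ± 0.117 FPKM (n = 59). These are bulk tissue values, in which fewer cells of a type and less RNA per cell cannot be told apart. The self-administration libraries differed from the rest in a large share of all genes, and since the labels give no batch, that paradigm and any batch cannot be told apart. They are therefore described as a set of their own.

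By the GRCm38 annotation 5 of the 8 genes lie in 2 clusters. Chrna5 (chr9:54980880-55007779, plus strand), Chrna3 (chr9:55010111-55026562, minus strand) and Chrnb4 (chr9:55028154-55048779, minus strand) follow each other within 67900 bases. Chrnb3 (chr8:27368711-27399730, plus strand) and Chrna6 (chr8:27403212-27413944, minus strand) are separated by 3481 bases. Chrna4 (chr2:181018380-181043546), Chrnb2 (chr3:89746195-89764632) and Chrna7 (chr7:63098692-63212569) stand alone, each on the minus strand. All 8 are annotated as protein coding. Chrnb2 shares 1365 exonic bases with Adar, an RNA-editing enzyme on the opposite strand, so reads from that stretch cannot be told apart unless strand was used, and the sources used here do not say so.

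RefSeq promoters (GRCm38.p6, 250 bases before to 50 after the start) matched 6 of the 8 members with 7 start sites. Chrna6 and Chrnb3 had no entry. The promoters of the chromosome 9 cluster are shown because its 3 genes lie side by side, with Chrnb4 far below Chrna5 and Chrna3 in level. Capitals mark GC boxes (GGGCGG on either strand), a motif found in 35.7% of the 32851 RefSeq promoters of this length.
Chrna5, first start, chr9:54980630-54980929, plus strand: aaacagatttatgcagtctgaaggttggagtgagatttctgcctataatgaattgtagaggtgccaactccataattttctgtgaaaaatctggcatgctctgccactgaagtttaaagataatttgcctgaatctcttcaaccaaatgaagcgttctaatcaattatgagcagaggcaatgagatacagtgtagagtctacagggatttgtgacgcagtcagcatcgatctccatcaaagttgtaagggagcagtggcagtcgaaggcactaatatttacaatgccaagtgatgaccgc
Chrna5, second start, chr9:54981238-54981537, plus strand: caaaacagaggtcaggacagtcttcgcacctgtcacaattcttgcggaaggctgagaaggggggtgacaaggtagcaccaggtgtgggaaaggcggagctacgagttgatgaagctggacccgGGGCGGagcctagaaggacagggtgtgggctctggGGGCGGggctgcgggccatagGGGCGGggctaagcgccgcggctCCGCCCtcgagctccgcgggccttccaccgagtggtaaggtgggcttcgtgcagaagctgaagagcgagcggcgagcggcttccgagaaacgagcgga
Chrna3, chr9:55026513-55026812, minus strand: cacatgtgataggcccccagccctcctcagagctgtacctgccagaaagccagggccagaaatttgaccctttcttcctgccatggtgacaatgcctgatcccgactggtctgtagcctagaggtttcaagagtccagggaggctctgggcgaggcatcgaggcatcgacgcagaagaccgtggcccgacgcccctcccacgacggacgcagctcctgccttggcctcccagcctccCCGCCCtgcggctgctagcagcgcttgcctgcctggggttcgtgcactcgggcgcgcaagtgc
Chrnb4, chr9:55048495-55048794, minus strand: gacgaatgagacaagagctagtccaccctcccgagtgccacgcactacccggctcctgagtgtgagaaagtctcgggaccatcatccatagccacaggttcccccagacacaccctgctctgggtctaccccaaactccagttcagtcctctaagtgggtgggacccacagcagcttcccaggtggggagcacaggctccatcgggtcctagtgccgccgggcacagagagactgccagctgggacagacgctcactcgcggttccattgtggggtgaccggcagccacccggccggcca

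The second Chrna5 start held 4 GC boxes and 65.0% G and C, while the first held none and 41.3%. Chrna3 held 1 and Chrnb4 none. Of the other members, Chrna4 held 3, Chrnb2 1 and Chrna7 1. None of the 7 windows held AAAGGTCA (1.51% of all promoters), the sequence that Nr4a factors bind, or TAATCC (7.06%), the sequence that bicoid-class factors such as Pitx3 bind, on either strand. The E-box CACGTG (7.15%) occurred once, in Chrna7. A match or its absence describes these letters in this window and nothing about a factor.

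The 8 subunits differed widely in level. Over all 59 libraries Chrna6 was at 54.5 ± 25.6 FPKM (SD, n = 59), Chrna4 at 42.7 ± 9.93, Chrnb2 at 22.3 ± 2.43 and Chrnb3 at 19.6 ± 8.14. Chrna7 was at 11.8 ± 1.53, Chrna5 at 4.40 ± 2.12, Chrna3 at 3.63 ± 1.41 and Chrnb4 at 0.384 ± 0.250. Of the summed FPKM of the 8 genes, Chrna6 made up 32.6% ± 6.46 (SD over libraries), Chrna4 27.6% ± 3.90, Chrnb2 14.9% ± 3.60 and Chrnb3 11.9% ± 1.72. The rarest, Chrnb4, made up 0.236% ± 0.130.

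The order of neighbours was fixed for some pairs and not for others. Chrna4 exceeded Chrnb2, Chrna7 exceeded Chrna5, and Chrna3 exceeded Chrnb4 in 59 of 59 libraries. Chrna6 exceeded Chrna4 in 41 of 59, and the median Th was 367.2 FPKM in those and 165.5 in the other 18. The self-administered cocaine group held 7 of the 18, and there these medians were closer, at 235.5 and 215.6 FPKM. In self-administration saline, with 3 of the 18, they were 261.3 and 151.6 FPKM. Chrnb2 exceeded Chrnb3 in 40 of 59, where the median Th was 226.4 FPKM, against 497.2 in the 19 where Chrnb3 was the higher. Chrnb3 exceeded Chrna7 in 50 and Chrna5 exceeded Chrna3 in 47 of 59. In self-administration Chrna5 exceeded Chrna3 in 10 of 15 cocaine and 4 of 9 saline libraries. Elsewhere it failed to do so in 1 chronic cocaine and 1 chronic saline library. Thus Chrna6 and Chrna4, Chrnb2 and Chrnb3, Chrnb3 and Chrna7, and Chrna5 and Chrna3 were neighbours whose ranges overlapped and whose order changed between libraries.

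**Figure D1:**
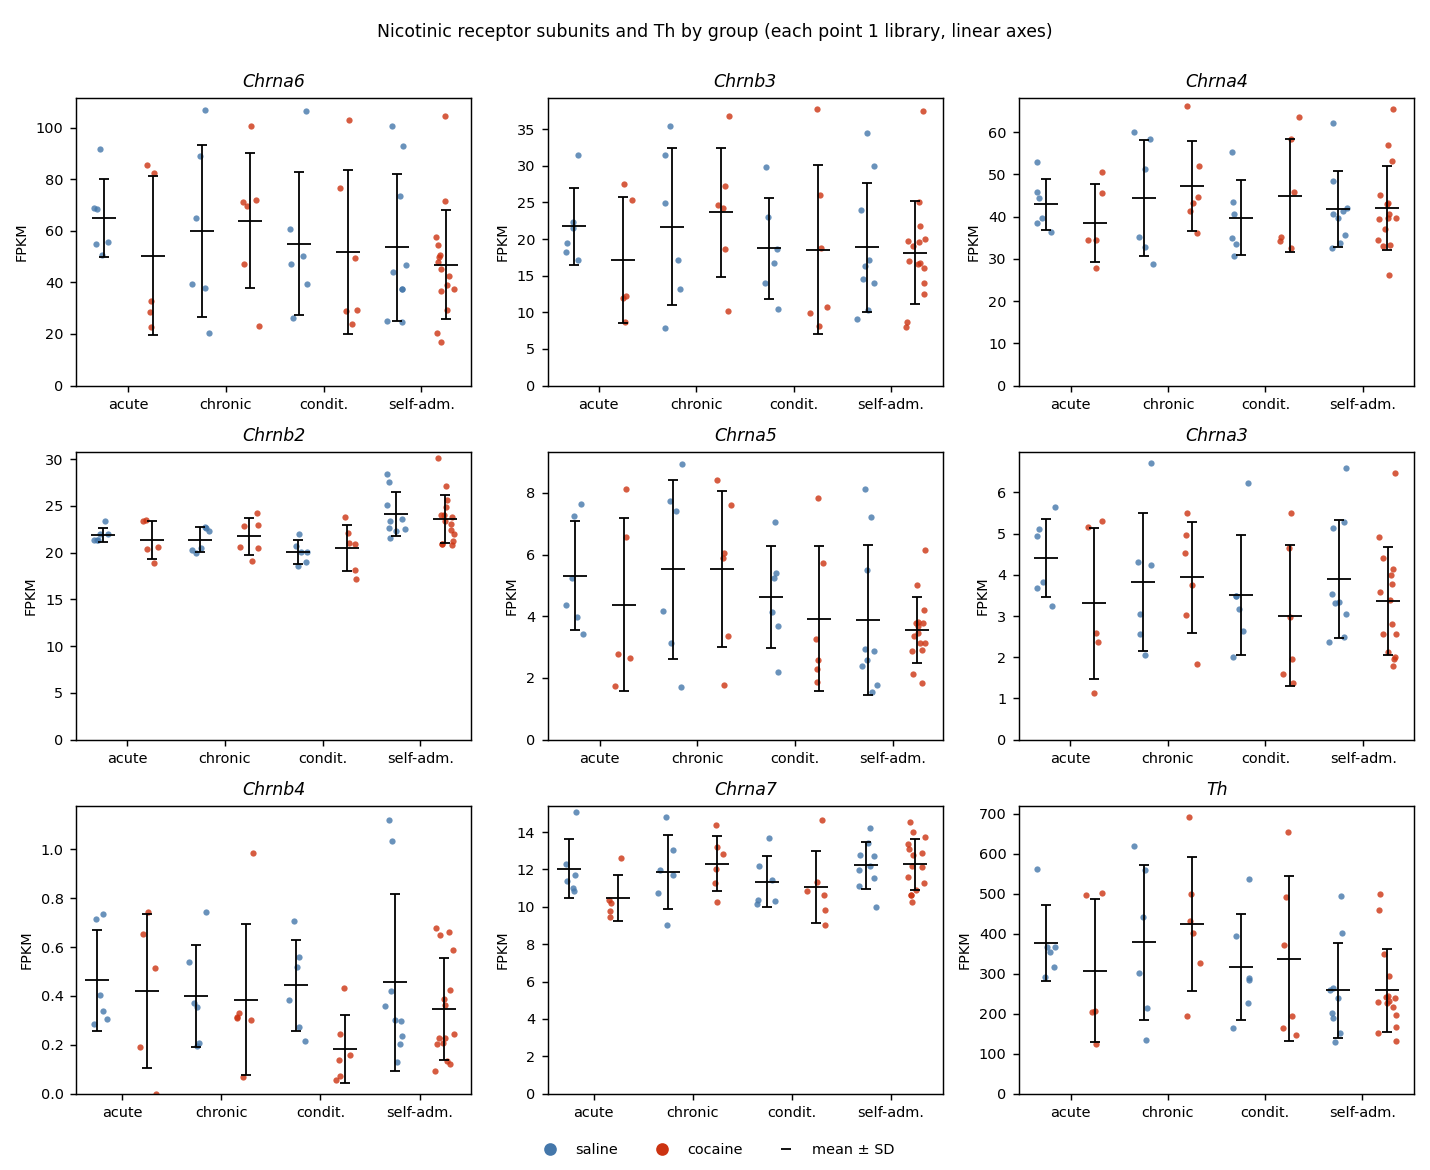
FPKM (linear axes) of the 8 subunits and Th in the 8 groups. Each point is 1 library (blue saline, red cocaine), and bars are mean ± SD over the libraries of a group. Cocaine and saline points overlap in every paradigm for every gene, and Chrnb2 and Chrna7 keep a narrow range while Chrna6 and Chrnb3 spread over several fold as Th does.

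Chrna6 and Chrnb3, subunits that are concentrated in catecholamine neurons and that assemble with each other, were the most variable of the well expressed members. Chrna6 had its lowest, median and highest FPKM at 50.6, 62.0 and 91.8 in acute saline, 20.6, 52.3 and 107 in chronic saline, 26.4, 48.6 and 106 in conditioning saline, and 24.7, 44.1 and 101 in self-administration saline. The 5 acute cocaine libraries had 85.4, 82.3, 32.9, 28.7 and 22.6, so that 2 lay among the high saline values and 3 below the lowest saline library. With chronic cocaine the lowest, median and highest were 23.2, 70.3 and 101, with cocaine conditioning 24.04, 39.5 and 103, and with self-administered cocaine 16.9, 45.2 and 105. Every group thus held libraries both near the bottom and in the upper part of the range of Chrna6, apart from acute saline, where none fell below 50.6.

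Chrnb3 followed the same libraries. Its lowest, median and highest FPKM were 17.1, 20.5 and 31.5 in acute saline, 7.90, 21.1 and 35.5 in chronic saline, 10.4, 17.7 and 29.8 in conditioning saline, and 9.05, 16.3 and 34.5 in self-administration saline. Acute cocaine libraries had 27.5, 25.3, 12.0, 12.3 and 8.75. In the other cocaine groups they were 10.2, 24.5 and 36.7 (chronic), 8.08, 14.8 and 37.7 (conditioning), and 8.00, 16.9 and 37.5 (self-administration). Over all libraries the highest value was 4.78 times the lowest for Chrnb3 and 6.33 times for Chrna6.

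Chrna4 and Chrnb2 together form the most common high-affinity nicotinic receptor of the brain. Chrna4 ran from 26.3 to 66.1 FPKM over all libraries, a 2.51-fold range, with group means from 38.6 ± 9.23 (acute cocaine, n = 5) to 47.3 ± 10.6 (chronic cocaine, n = 6). Chrnb2 varied less, from 17.1 to 30.1 FPKM, a 1.76-fold range. Chrna7, whose homomeric channels are permeable to calcium, ran from 9.01 to 15.1 FPKM, a 1.67-fold range.

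The chromosome 9 subunits were low. Chrna5, which alters the conductance and desensitisation of receptors it joins, ran from 1.54 to 8.95 FPKM. Chrna3, the alpha subunit typical of autonomic ganglia and of the habenula and interpeduncular nucleus, ran from 1.13 to 6.70. Chrnb4, its usual partner, stayed below 1.13 FPKM and was listed at 0 in 1 library, acute cocaine library 4, which also had the lowest Th (124.3 FPKM). Its mean was under the 1 FPKM used as a minimum for testing, so 7 of the 8 members were tested and Chrnb4 is given from fits without that minimum.

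Among the saline groups, Chrnb2 was the 1 member whose difference between paradigms passed the test. A moderated F test over the 4 saline groups (limma) called 1 of the 7 members tested (adjusted p = 0.00188), where 48.9% of 13202 genes were called. Chrnb2 had its lowest, median and highest FPKM at 21.3, 21.7 and 23.4 in acute saline, 19.98, 21.4 and 22.8 in chronic saline, 18.5, 20.1 and 22.0 in conditioning saline, and 21.6, 23.4 and 28.4 in self-administration saline. The self-administration libraries were the high ones, and their range overlapped that of each of the other 3 saline groups. Self-administration saline minus the mean of the other 3 saline groups was 0.18 ± 0.04 (SE) on the log2(FPKM + 1) scale (1.13-fold, adjusted p = 0.000474). In that contrast 59.6% of all genes were called, 31.8% as higher and 27.8% as lower.

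Adar, the opposite-strand neighbour of Chrnb2, was higher in the same contrast by 0.19 ± 0.05 (adjusted p = 0.000797), at 55.3 ± 6.08 FPKM (n = 9) against 48.1 ± 2.56 (n = 18). What Adar reads contributed to the Chrnb2 value was not tested. The other 6 tested members were at -0.40 ± 0.24 for Chrna5, -0.20 ± 0.28 for Chrna6, -0.16 ± 0.23 for Chrnb3, -0.012 ± 0.12 for Chrna4, -0.0029 ± 0.16 for Chrna3 and 0.056 ± 0.066 for Chrna7, and none was called (lowest adjusted p = 0.156, Chrna5). Th itself was at -0.48 ± 0.25 (adjusted p = 0.108). Chrnb4 was at -0.0039 ± 0.098 in the fit without the minimum.

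Library by library, most subunits rose and fell with Th. In the 35 acute, chronic and conditioning libraries, with group means removed, the slope of log2(FPKM + 1) on that of Th was 1.00 ± 0.04 (SE) for Chrna6 and 0.88 ± 0.02 for Chrnb3. It was 0.80 ± 0.05 for Chrna5, 0.64 ± 0.04 for Chrna3 and 0.44 ± 0.03 for Chrna4. Chrna7 and Chrnb2 had slopes of 0.17 ± 0.03 and 0.14 ± 0.01. All 7 were called positive (limma, highest adjusted p = 0.000262, Chrna7), where 27.4% of 13172 genes had a slope past the threshold, 13.5% positive and 13.8% negative.

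The self-administration libraries gave the same order at the top: Chrna6 1.05 ± 0.12, Chrnb3 0.89 ± 0.09, Chrna5 0.75 ± 0.09, Chrna3 0.58 ± 0.09 and Chrna4 0.47 ± 0.06. Chrnb2 had a slope of 0.17 ± 0.04 (adjusted p = 0.0354) and Chrna7 one of 0.042 ± 0.055 (adjusted p = 0.999). There 6 of 7 members were called positive, against 1.04% of 13129 genes (1.42% in either direction). Without the 2 libraries farthest from the median of Th the calls of Chrna3 (0.51, adjusted p = 0.05001) and Chrnb2 (0.12, adjusted p = 0.565) ended, and Chrna7 was at -0.047. The difference between both sets of slopes, tested as an addition once values were known, called 0 of the 7 members and 0.00758% of 13185 genes. The slope of Chrna7 was lower in self-administration by 0.13 ± 0.06 with adjusted p = 0.978, the only member under an unadjusted p of 0.05.

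**Figure D2:**
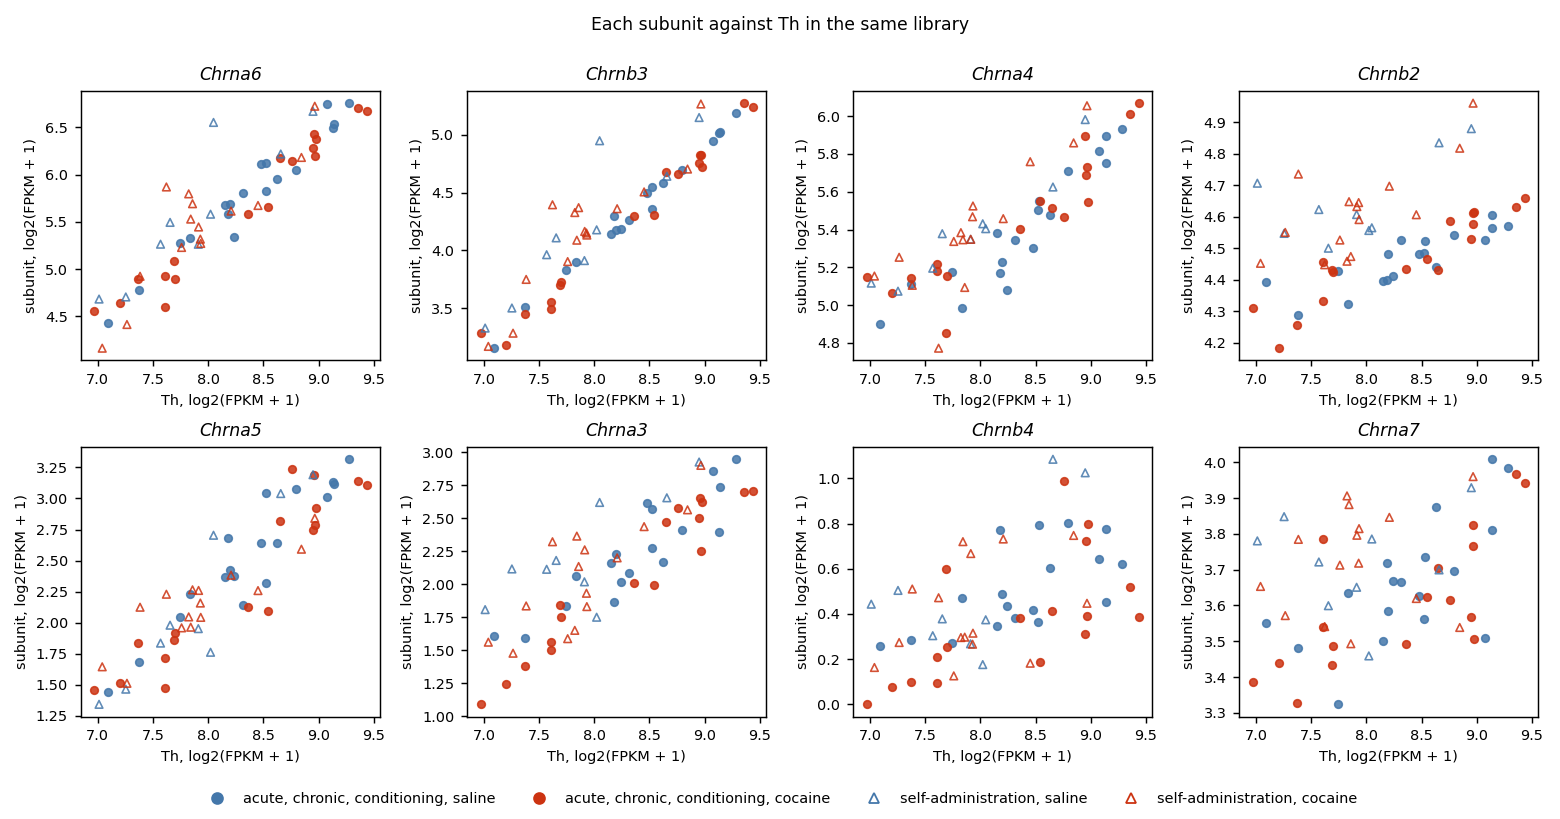
Each subunit against Th in the same library, both as log2(FPKM + 1). Filled circles are acute, chronic and conditioning libraries and open triangles self-administration libraries (blue saline, red cocaine). The points are plotted without removing group means. With group means removed, r for the libraries shown as circles ran from 0.992 (Chrnb3) down to 0.675 (Chrna7). Chrna6 and Chrnb3 follow Th most closely, Chrnb2 and Chrna7 change little over the range of Th, and several triangles lie above the circles at the same Th.

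Known dopamine neuron genes had a wide range of slopes by the same measure. The dopamine transporter Slc6a3 had slopes of 1.00 ± 0.05 and 1.04 ± 0.09 in the 35 and the 24 libraries. The vesicular monoamine transporter Slc18a2 had 0.92 ± 0.04 and 0.92 ± 0.10, the decarboxylase Ddc 0.85 ± 0.03 and 0.86 ± 0.09, and the dopamine receptor Drd2 0.72 ± 0.04 and 0.62 ± 0.06. Aldh1a1, an aldehyde dehydrogenase of part of the dopamine neurons, had 0.68 ± 0.07 and 0.78 ± 0.13. Of the transcription factors of these neurons, En1 had 0.90 ± 0.04 and 0.85 ± 0.11, Lmx1b 0.62 ± 0.04 and 0.37 ± 0.09, and Nr4a2 0.34 ± 0.04 and 0.20 ± 0.11, while Pitx3 had 1.04 ± 0.08 in the 35 libraries and was under the minimum in self-administration. Gad2, which makes GABA, had 0.039 ± 0.037 and -0.036 ± 0.067, and the vesicular glutamate transporter Slc17a6 had -0.28 ± 0.03 and -0.19 ± 0.08. Because 1 FPKM was added before taking logs, slopes of low genes are understated: with 0.1 in its place Chrna5 was at 0.99 and 0.93 and Chrna3 at 0.83 and 0.72. Chrnb4, without the minimum, had slopes of 0.22 ± 0.04 (adjusted p = 0.000384) and 0.24 ± 0.08 (adjusted p = 0.242).

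**Figure D3:**
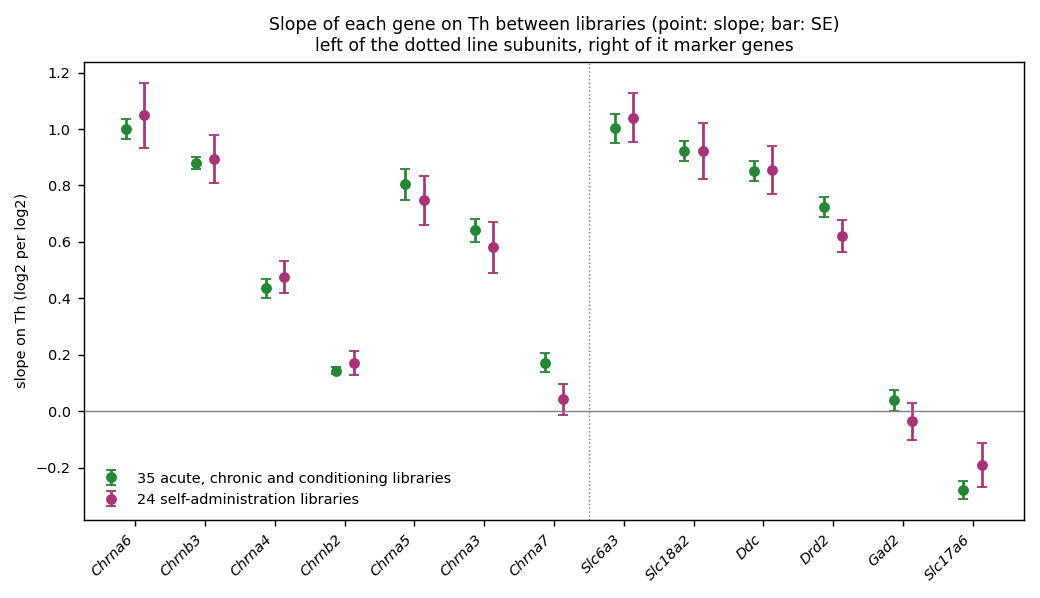
Slope of each gene on Th (log2 FPKM + 1 on both scales, group means removed) in the 35 acute, chronic and conditioning libraries (green) and the 24 self-administration libraries (purple). Points are slopes and bars their SE, with 7 subunits on the left and 6 marker genes on the right. Chrna6 lies at 1.00 and 1.05, beside Slc6a3, while Chrnb2 lies at 0.14 and 0.17 and Chrna7 at 0.17 and 0.042.

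Correlations with Th were high for most members. In the 35 libraries Pearson's r was 0.992 for Chrnb3, 0.980 for Chrna6, 0.943 for Chrna3, 0.936 for Chrna5, 0.916 for Chrna4 and 0.915 for Chrnb2, with Spearman's rho of 0.990, 0.982, 0.936, 0.941, 0.910 and 0.912. Each had a permutation p of 1e-05 for r and for rho (adjusted 1.46e-05 and 1.78e-05 over 16 correlations), the smallest that 100000 permutations can give. Chrna7 had r = 0.675 and rho = 0.674 (permutation p = 4e-05 for each), and Chrnb4 r = 0.680 and rho = 0.731 (permutation p = 7e-05 and 3e-05). Without the 2 libraries farthest from the median of Th, r stayed between 0.617 (Chrnb4) and 0.993 (Chrnb3). Among 13185 genes, Chrnb3 had the second highest r with Th, Chrna6 the seventh and Chrna7 rank 617.

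In the 24 self-administration libraries r was 0.905 for Chrnb3, 0.879 for Chrna6, 0.874 for Chrna5, 0.872 for Chrna4 and 0.797 for Chrna3, each with a permutation p of 1e-05. Their rho was 0.846, 0.788, 0.799, 0.870 and 0.698, and r without the 2 farthest libraries was 0.857, 0.826, 0.820, 0.799 and 0.695. Chrnb2 had r = 0.680 and rho = 0.544 (permutation p = 0.00041 and 0.00712), falling to r = 0.496 without those libraries. Chrnb4 had r = 0.512 and rho = 0.314 (permutation p = 0.0152 and 0.151). Chrna7 had r = 0.166 and rho = 0.145 (permutation p = 0.447 and 0.504), with -0.169 without the 2 libraries. Ranks of r with Th were 10 for Chrnb3, 21 for Chrna6 and 2900 for Chrna7.

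As a share of Th, Chrnb3 was nearly constant outside self-administration. It was 5.76% ± 0.402 of Th in the 35 libraries (range 5.04% to 7.04%), a coefficient of variation of 6.99%. Chrna6 was 16.1% ± 1.75 of Th (11.9% to 19.8%, coefficient of variation 10.9%), and Slc6a3 by the same measure was 87.2% ± 12.0. Chrna4, Chrnb2 and Chrna7, the members with the lowest slopes of the 7, varied more as a share of Th than as FPKM, with coefficients of variation of 32.9%, 43.9% and 42.7% of Th.

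In self-administration these shares were higher and wider. Chrnb3 was 7.22% ± 1.37 of Th (5.47% to 11.3%, n = 24) and Chrna6 19.1% ± 5.01 (13.0% to 35.2%), and so were Slc6a3, at 112% ± 21.5, and Slc18a2, at 48.5% ± 10.8 against 36.8% ± 3.73 in the 35 libraries. Th, by which these shares are divided, was at 258.3 ± 107.5 FPKM in self-administration and 358.2 ± 159.0 in the 35 libraries. In FPKM, Chrna6 was at 49.4 ± 23.8 against 57.9 ± 26.5 and Chrnb3 at 18.4 ± 7.56 against 20.3 ± 8.53. The highest Chrna6 and Chrnb3 shares both came from self-administration saline library 0, which had 92.8 FPKM of Chrna6 and 29.9 of Chrnb3 with 263.7 of Th. Among saline libraries alone Chrnb3 was 7.39% ± 1.65 of Th (n = 9, lowest 5.87%) in self-administration and 5.86% ± 0.293 (n = 18, highest 6.45%) elsewhere. The ranges overlapped, and this difference in shares was not tested.

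Subunits also varied with each other. Of the 28 pairs, 28 were called positive in the 35 libraries (r from 0.450 to 0.986, adjusted over 56 pair and set combinations). In self-administration 20 were called (r from 0.210 to 0.989 over all pairs). Pairs of other genes were not tested. These counts, and those with Th removed, therefore have no share over all genes beside them and do not set the subunits apart. Chrna6 and Chrnb3, neighbours on chromosome 8, were the closest pair in both sets, with r = 0.986 and rho = 0.986 in the 35 and r = 0.989 and rho = 0.977 in the 24 libraries (permutation p = 1e-05 for each, r without the 2 farthest libraries 0.983 and 0.985). The weakest pairs were Chrna7 with Chrnb4 in the 35 libraries (r = 0.450, rho = 0.560, permutation p = 0.00798 and 0.0009) and Chrna7 with Chrna6 in self-administration (r = 0.210, rho = 0.170, permutation p = 0.335 and 0.433). Chrna4 and Chrnb2, which form a receptor together, had r = 0.843 and 0.722.

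Much of this was shared variation with Th, so r was also taken after Th and the group means were removed. In the 35 libraries 6 pairs then passed the threshold, 5 positive and 1 negative, and 4 of them did so for rho as well. Chrna5 with Chrnb4, from the chromosome 9 cluster, had the highest value (r = 0.660, rho = 0.522, adjusted permutation p = 0.00812 and 0.0335). Chrna6 with Chrnb3 had r = 0.569 and rho = 0.440 (adjusted permutation p = 0.0196 and 0.0620). Chrna5 with Chrna6 had r = 0.558, Chrna5 with Chrnb3 r = 0.551 and Chrna3 with Chrna6 r = 0.506, and the negative pair was Chrna4 with Chrnb4 (r = -0.473, rho = -0.482, adjusted permutation p = 0.0450 and 0.0502). Chrna3 with Chrna5 (r = 0.411), Chrna3 with Chrnb4 (r = 0.350) and Chrna4 with Chrnb2 (r = 0.029) did not pass.

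In self-administration 4 pairs passed, and 2 did so for rho as well. Chrna6 with Chrnb3 kept r = 0.956 and rho = 0.917 with Th removed (adjusted permutation p = 0.00056 for each, from the smallest p that permutations can give). With the mean of Th, Slc6a3, Slc18a2 and Ddc removed in place of Th, a choice made after the data were seen, r was 0.806, and 0.780 without saline library 0. Chrna5 with Chrnb3 had r = 0.559 with Th removed but 0.153 with the mean of the 4 genes removed. Chrna5 with Chrna6 had r = 0.532 and rho = 0.519 with Th removed (adjusted permutation p = 0.0450 and 0.0553). Chrna4 with Chrna6 had r = -0.538 and rho = -0.335 (adjusted permutation p = 0.0450 and 0.289). Chrna5 with Chrnb4 had r = 0.446 (adjusted permutation p = 0.115). No pair with Chrna7 passed in either set.

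**Figure D4:**
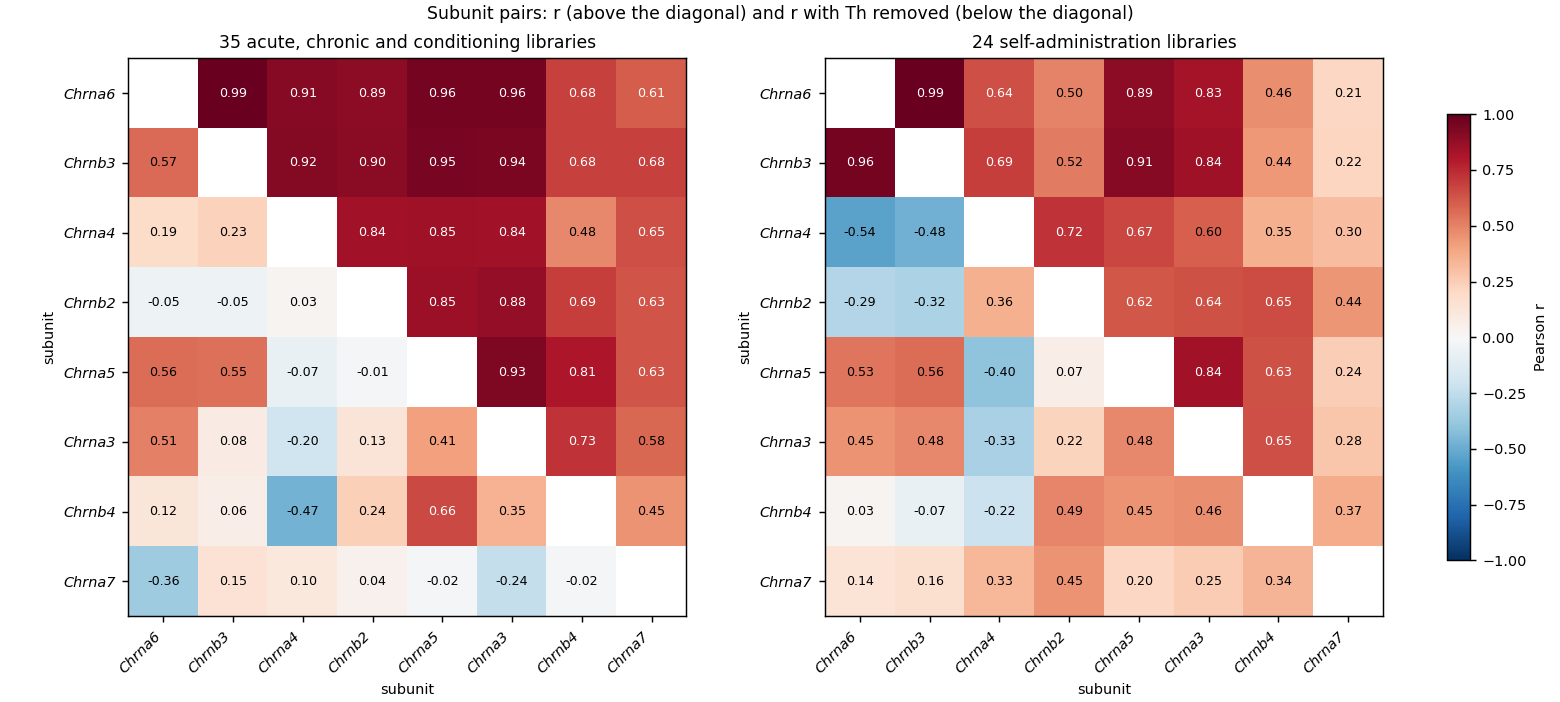
Pearson's r between subunits over 35 acute, chronic and conditioning libraries (left) and 24 self-administration libraries (right), from log2(FPKM + 1) with group means removed. Cells above the diagonal give r and cells below it r after Th was also removed, on a scale from -1 to 1. Chrna6 with Chrnb3 is the darkest cell above the diagonal in both panels, at 0.986 and 0.989, and most cells below the diagonal are paler than their partners above it.

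The genes most like each subunit were ranked by the lower of its r values in both sets, as a description over 35 and 24 libraries. For Chrna6 these were Chrnb3 (0.986), Ddc (0.982), Slc18a2 (0.981), the cation channel gene Trpc6 (0.980) and Slc10a4 (0.972), a vesicle protein of monoamine and cholinergic neurons. For Chrnb3 they were Chrna6, the vesicle priming factor Cadps2 (0.982), Slc18a2 (0.979), Trpc6 (0.976) and Slc10a4 (0.975). Th ranked 33 for Chrna6 and 25 for Chrnb3, and its lower r came from self-administration in both cases.

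Chrna4 was closest to Th itself (0.872), followed by Drd2 (0.871), Dlk1 (0.868), the neurotrophic receptor Ret (0.863) and the neurotensin receptor Ntsr1 (0.859). Chrna5 was closest to Cyp26b1, an enzyme that degrades retinoic acid (0.929), then to Syt17 (0.922), Trpc6 (0.912), Slc18a2 (0.911) and Cadps2 (0.909). Chrnb4 had weaker matches, among them Lhfpl5 (0.760), Pthlh (0.754), the protease Pcsk5 (0.719) and the muscarinic receptor Chrm5 (0.718), with Th at rank 165.

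Between cocaine and saline, no tested subunit passed the threshold in any of the 4 paradigms, and neither did any other gene. After acute injection all 7 were lower and 0 were called by limma, where 0% of 13164 genes were called. At unadjusted p under 0.05 there were 0 members and 3.91% of genes. Differences were -0.55 ± 0.37 for Chrna6 (95% confidence interval -1.37 to 0.27), -0.42 ± 0.29 for Chrnb3, -0.42 ± 0.26 for Chrna3, -0.34 ± 0.33 for Chrna5, -0.17 ± 0.14 for Chrna4 and -0.039 ± 0.056 for Chrnb2, each with adjusted p = 0.985. Chrna7 was at -0.18 ± 0.09, with 10.5 ± 1.24 FPKM after cocaine and 12.0 ± 1.58 after saline and the smallest unadjusted p of the 7 (0.0554). Without acute cocaine library 4, the library with the lowest Th, the values were -0.32 for Chrna6, -0.23 for Chrnb3, -0.20 for Chrna3 and -0.14 for Chrna5. Without acute cocaine library 0 they were -0.79, -0.62, -0.59 and -0.57. Th was at -0.47 ± 0.37, and the summed dopamine neuron markers ran from 657.2 to 2079 FPKM after cocaine and from 1207 to 2265 after saline.

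After chronic injection all 7 members were on the positive side, with 0 called, 0% of 13190 genes called and 0 members under unadjusted p of 0.05 (7.38% of genes). The range was from 0.019 ± 0.058 for Chrnb2 to 0.19 ± 0.39 for Chrnb3, with Chrna6 at 0.17 ± 0.45 and Th at 0.25 ± 0.42. Leaving out chronic saline library 2, which had the lowest Th of its group (135.3 FPKM), brought Chrnb3 to -0.053, Chrna6 to -0.089 and Chrna5 to -0.20.

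In conditioning 2 members were higher and 5 lower after cocaine, with 0 called, 0% of 13135 genes called and 0 members under unadjusted p of 0.05 (8.21% of genes). Chrna5 was at -0.26 ± 0.30, Chrna3 at -0.22 ± 0.28, Chrna6 at -0.16 ± 0.42, Chrnb3 at -0.14 ± 0.38, Chrna7 at -0.042 ± 0.098, Chrnb2 at 0.024 ± 0.072 and Chrna4 at 0.15 ± 0.19. Th was at -0.036 ± 0.43.

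In self-administration, the largest groups, 2 members were higher and 5 lower, with 0 called, 0% of 13130 genes called and 0 members under unadjusted p of 0.05 (3.43% of genes). Chrna3 was at -0.17 ± 0.16 and Chrna6 at -0.15 ± 0.28, and the other 5 lay between -0.030 ± 0.059 (Chrnb2) and 0.011 ± 0.19 (Chrna5). Intervals were narrowest for Chrnb2 (-0.15 to 0.091) and Chrna7 (-0.12 to 0.13) and widest for Chrna6 (-0.72 to 0.42). The interval of Chrna6 held changes in either direction, and its difference was the least closely estimated of the members tested.

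**Figure D5:**
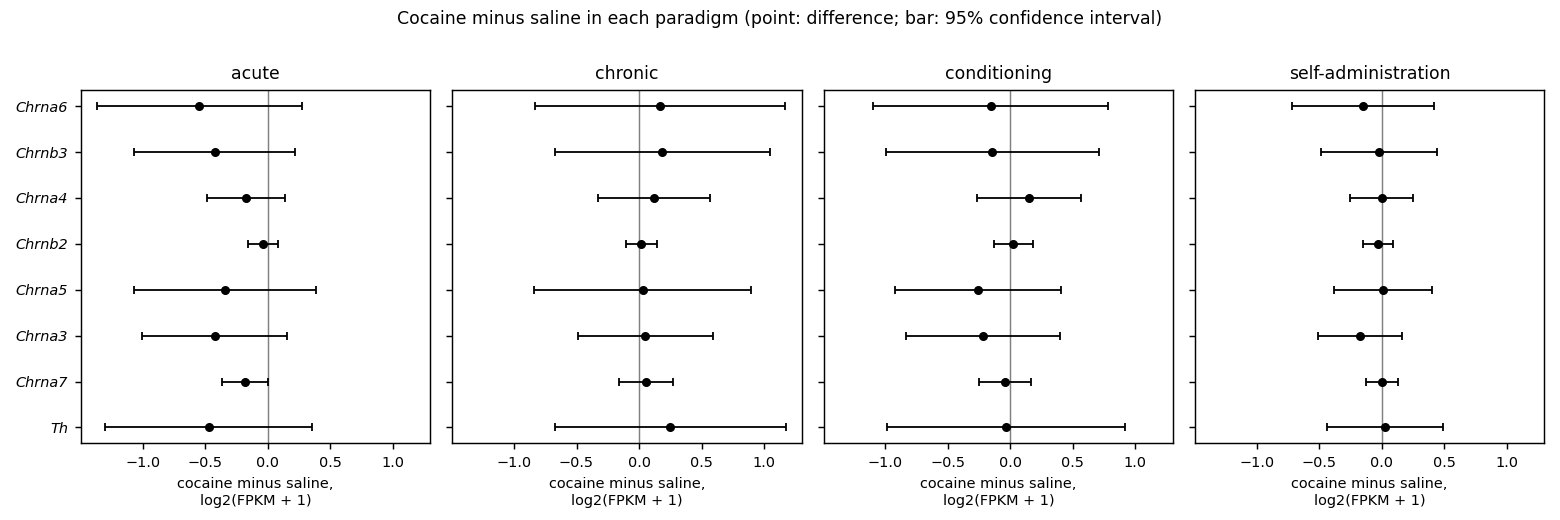
Cocaine minus saline of 7 subunits and Th on the log2(FPKM + 1) scale in the 4 paradigms. Points are differences and bars 95% confidence intervals from limma, and the grey line marks 0. Every interval includes 0, the intervals of Chrnb2 and Chrna7 are the narrowest in each paradigm, and those of Chrna6 and Th are the widest.

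The average effect over the 4 paradigms called 0 of 7 members, where 0.00758% of 13186 genes were called and 12.8% had an unadjusted p under 0.05 (0 members). Chrna3 was at -0.18 ± 0.12 (adjusted p = 0.515), Chrna6 at -0.16 ± 0.18, Chrna5 at -0.11 ± 0.14 and Chrnb3 at -0.080 ± 0.16. Chrna7 was at -0.030 ± 0.043, Chrnb2 at -0.010 ± 0.032 and Chrna4 at 0.023 ± 0.083. In the 6 comparisons of cocaine effects between paradigms, 0 members and 0% of 13186 genes were called, and 0 members had an unadjusted p under 0.05.

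Set against Th within libraries, the acute differences of Chrna6, Chrnb3 and Chrna3 lay closer to 0. As a log ratio to Th the acute difference was -0.076 ± 0.41 for Chrna6, 0.046 ± 0.41 for Chrnb3 and 0.048 ± 0.41 for Chrna3, while Chrnb2 was at 0.43 ± 0.41, near the median of all genes at 0.47. Chrna4 and Chrna7 stayed positive with 1 library left out (0.060 to 0.46 and 0.050 to 0.52). Of the 7 ratios, 6 were positive in acute, 0 in chronic, 2 in conditioning and 0 in self-administration. Their medians were 0.13, -0.19, -0.11 and -0.046, beside 0.47, -0.25, 0.036 and -0.026 for all genes. No member was called in any paradigm, where 0.0076%, 0.0227%, 0% and 0% of genes were called in acute, chronic, conditioning and self-administration. The SE of this ratio is set by the spread of Th and is nearly the same for every gene. With Th as a covariate, the acute values were -0.093 ± 0.080 for Chrna6, -0.053 ± 0.053 for Chrnb3 and -0.099 ± 0.071 for Chrna7, again with 0 members called and 0% of genes.

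With Th as a covariate, 4 of the 7 members had an unadjusted p under 0.05 in conditioning, where 10.4% of 13134 genes did and 0% were called. Chrna4 was at 0.17 ± 0.06 (adjusted p = 0.411), Chrna5 at -0.23 ± 0.09 (adjusted p = 0.423), Chrna3 at -0.20 ± 0.08 and Chrnb3 at -0.11 ± 0.05 (adjusted p = 0.435 each). None passed. In chronic and self-administration no member had an unadjusted p under 0.05 in this fit. The self-administration values ran from -0.19 ± 0.10 (Chrna3) to 0.0021 ± 0.061 (Chrna7), and the chronic values from -0.20 ± 0.12 (Chrna5) to 0.012 ± 0.080 (Chrna7).

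Chrnb4 in conditioning was singled out after its values were seen. Its lowest, median and highest FPKM were 0.0545, 0.148 and 0.434 after cocaine and 0.217, 0.452 and 0.708 after saline, so the groups overlapped, and all 6 cocaine libraries lay below the saline median. The means were 0.183 ± 0.140 (n = 6) and 0.444 ± 0.186 (n = 6). Without the minimum on FPKM, limma gave -0.29 ± 0.09 (unadjusted p = 0.00902, adjusted p = 0.653), and with Th as a covariate -0.28 ± 0.06 (adjusted p = 0.434), so it did not pass over all genes.

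As a share of Th, Chrnb4 was 0.0372% to 0.0815% after cocaine and 0.0959% to 0.245% after saline in conditioning, which did not overlap. By that measure 8 of 19865 genes (0.0403%) were lower in every cocaine than in every saline library of this paradigm. As a log ratio to Th, with 1 FPKM added to both, limma without the minimum gave -0.25 ± 0.47 (unadjusted p = 0.594) and did not pass. With Chrnb4 below the 1 FPKM added, this ratio moves mostly with Th, so it cannot decide about the share. The difference in share itself was not tested. In the other paradigms, not set against Th, Chrnb4 was at -0.062 ± 0.15 (acute), -0.031 ± 0.13 (chronic) and -0.092 ± 0.11 (self-administration). The summed level of 6 markers listed for the interpeduncular nucleus, which lies beside the VTA (Epyc, Amigo1, Pax7, Otp, Sst and Nos1), ran from 73.8 to 164.5 FPKM after cocaine and from 106.1 to 279.6 after saline in conditioning, with 3 of the 6 at or above 1 FPKM and none at 0 throughout. Most of that sum was Sst, a peptide gene also used by other neurons (98.3 ± 39.8 FPKM in the 35 libraries). In the same libraries Amigo1 was at 19.0 ± 0.883 and Nos1 at 7.82 ± 2.02 FPKM. Epyc was at 0.213 ± 0.149, Pax7 at 0.745 ± 0.650 and Otp at 1.13 ± 1.11. Their part in the Chrnb4 values was not tested.

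The wider cholinergic system was followed with a list of 26 genes for synthesis, breakdown, muscarinic receptors, other nicotinic subunits and receptor chaperones. Between cocaine and saline 0 of 15 tested members were called in acute, 0 of 15 in chronic, 0 of 14 in conditioning and 0 of 16 in self-administration, with median differences of 0.015, 0.014, 0.021 and 0.0092. Of all genes 0% were called in each paradigm. At unadjusted p under 0.05 there were 1, 0, 2 and 0 list members, against 3.91%, 7.38%, 8.21% and 3.43% of all genes. These were the muscarinic receptor Chrm2 in acute (-0.17 ± 0.07, adjusted p = 0.985), and Chrm3 (-0.33 ± 0.10) and Lypd6b, of the Ly6 family (0.32 ± 0.12), in conditioning (adjusted p = 0.591 each).

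The next smallest p in each paradigm belonged to the nicotinic chaperone Ric3 (-0.073 ± 0.045), Chrm5 (-0.25 ± 0.21) and Lypd1 (0.094 ± 0.10) in acute. In chronic they were Lypd6b (0.083 ± 0.053), Ric3 (0.082 ± 0.060), Lypd6 (-0.070 ± 0.066) and the alpha7 chaperone gene Tmem35 (0.059 ± 0.057). In conditioning they were Chrm2 (0.24 ± 0.11) and Ly6h (-0.36 ± 0.17), and in self-administration Tmem35 (0.074 ± 0.046), Lypd6 (-0.19 ± 0.12), Ly6e (0.072 ± 0.057) and Chrm3 (-0.15 ± 0.12). None of these passed.

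The same list was also followed between saline groups. In self-administration saline minus the other saline groups, 8 of 15 tested members rose and 3 fell, against 31.8% and 27.8% of all genes. The difference of greatest size among them was that of Ly6h, a Ly6 protein that reduces alpha7 receptor surface levels (-1.24 ± 0.07, adjusted p = 1.53e-14). Ache, which breaks down acetylcholine, fell by 0.34 ± 0.07 and Bche, a related esterase, fell by 0.21 ± 0.05. Those that rose were Chrm3 (0.37 ± 0.13), Ric3 (0.33 ± 0.05), Lypd6 (0.23 ± 0.07), Chrm2 (0.18 ± 0.07), Ly6e (0.16 ± 0.04), Chrm4 (0.13 ± 0.06), Lypd6b (0.13 ± 0.06) and Tmem35 (0.13 ± 0.04). Here too the paradigm and any batch cannot be told apart.

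Members of this list differed in their relation to Th. For Chrm5, the muscarinic receptor typical of midbrain dopamine neurons, the slope on Th was 0.54 ± 0.04 in the 35 libraries and 0.37 ± 0.07 in self-administration (adjusted p = 0.0055). By contrast Chrm2 had -0.044 ± 0.040 and -0.040 ± 0.081, and Ly6h had 0.21 ± 0.06 and -0.043 ± 0.089. Chrna2, a nicotinic alpha subunit outside the 8, had a slope of 0.54 ± 0.15 (adjusted p = 0.0102) in the 35 libraries and was under the FPKM minimum in self-administration.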

How the data were processed

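Gene expression was measured by RNA sequencing in 59 VTA libraries in 8 groups. The authors deposited 1 table of FPKM for 24346 gene symbols. Bowtie, Cuffnorm and the mm10 build are named per the submitters' processing notes, with versions, annotation and strand setting not given in the sources used here. Depth is unknown: FPKM summed to 398577 to 457508 per library, 5689 to 7925 symbols were at 0, and the most frequent step between low values held 0.388% to 2.27% of low genes, so reads were not recovered. No 2 libraries were identical (0 pairs). Columns were matched to groups by name. Column numbers count from 0 and were not tied to the replicate numbers of the labels.

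Values were taken as log2(FPKM + 1). Genes whose mean FPKM in the compared libraries was 1 or more were fitted with limma 3.58.1 (trend and robust empirical Bayes, statmod 1.5.0, R 4.3.3), two-sided, with Benjamini-Hochberg adjustment over all genes tested and a threshold of 0.05. Each paradigm was fitted alone. The average effect had paradigm as a term, and the 6 differences between effects came from 1 fit of all groups. Slopes on Th and correlations were taken with group means removed, the latter with 100000 permutations within groups, in Python 3.11.15 with NumPy 2.4.6 and pandas 2.3.3. The fits were tested on simulated data. Alternatives were the pseudocount, the minimum, quantile normalization, array weights, Th as a covariate, the mean of 4 dopamine genes, and leaving out libraries or paradigms. The slope difference, Chrnb4 relative to Th without the minimum, and pair correlations with the 4-gene mean removed were added after the data were seen.

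All members and Th are named, although some comparisons give part of the members only as a range or a count. Of the cholinergic list, the 4 genes with the smallest p in each paradigm and every one past the threshold are named, and for Chrna6, Chrnb3, Chrna4, Chrna5 and Chrnb4 the 5 most alike genes, of which 1 is not reported here. Members, lists and rules were chosen with earlier results of these data known. Promoters came from RefSeq (GRCm38.p6) and gene positions from GENCODE M21 on GRCm38, the assembly that mm10 names.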

Additional observations from a re-analysis of the deposited data

Results flagged for a closer look

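In 6 of the 56 pairs of a member and a group with 5 to 9 libraries, the highest library stood apart from the rest. The gap to the nearest library was set against the range of the group (Dixon's 95% limit). Chrna7 in acute cocaine (gap 0.712 of the range, limit 0.71) and Chrnb3 in acute saline (0.634, limit 0.625) passed narrowly. Chance alone gives such a library in about 1 in 20 independent groups, and members measured in the same library are not independent. In acute saline the library set apart was library 0, for Chrna7 (15.1 FPKM, next 12.3), Chrnb2 (23.4, next 22.1) and Chrnb3 (31.5, next 22.4). That library also had the highest Th of its group (561.7 FPKM). In acute cocaine, library 0 had 12.6 FPKM of Chrna7 (next 10.4) with 497.2 of Th. Conditioning saline library 0 had 6.24 FPKM of Chrna3 (next 3.48) with 537.9 of Th. Chronic cocaine library 4 had 0.985 FPKM of Chrnb4 (next 0.331) with 431.5 of Th.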

How the results depend on the processing

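The counts of members past the threshold were within 1.5 times of those reported under every alternative run. No member passed the threshold for cocaine against saline, or relative to Th, in any of the 4 paradigms under any of them, nor for the average effect. Without the 2 libraries farthest from the median of Th, the self-administration slopes of Chrna3 and Chrnb2 ended as calls, and that of Chrna7 was at -0.047. Differences that had not passed changed sign as follows, on the log2(FPKM + 1) scale, and the cause was not tested.

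With array weights the cocaine differences were 0.00693 for Chrnb2 in acute. In chronic they were -0.093 for Chrna3, -0.094 for Chrna4, -0.17 for Chrna5, -0.13 for Chrna6, -0.048 for Chrna7, -0.00215 for Chrnb2 and -0.084 for Chrnb3. In conditioning they were 0.021 for Chrna3, 0.15 for Chrna6 and 0.14 for Chrnb3, and in self-administration 0.12 for Chrna4, 0.021 for Chrna6, -0.00552 for Chrna7 and 0.13 for Chrnb3. The average effect was 0.014 for Chrnb2 and 0.000799 for Chrnb3. Without a paradigm, the average effect was 0.00494 for Chrna7 and 0.000432 for Chrnb3 without acute, -0.00155 for Chrna4 without chronic, -0.00994 for Chrna4 without conditioning, and 0.00264 for Chrnb2 without self-administration. With quantile normalization, self-administration saline minus the other saline groups was 0.026 for Chrna3 and 0.023 for Chrna4.

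Relative to Th, a fitted slope on Th gave -0.084 for Chrna3, -0.00906 for Chrna4, -0.099 for Chrna7 and -0.053 for Chrnb3 in acute, 0.012 for Chrna7 in chronic and 0.00213 for Chrna7 in self-administration. The mean of Th, Slc6a3, Slc18a2 and Ddc in place of Th gave 0.028 for Chrna7 in conditioning and 0.085 for Chrna4, 0.096 for Chrna5, 0.089 for Chrna7, 0.055 for Chrnb2 and 0.065 for Chrnb3 in self-administration. With 0.1 added in place of 1, the values were -0.10 for Chrna3 in acute and 0.020 for Chrna5 in self-administration.

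Leaving out 1 library at a time, the differences that changed sign had these lowest and highest values. The acute differences ran from -0.073 to 0.00275 for Chrnb2. Relative to Th they ran from -0.010 to 0.12 for Chrna3 and -0.034 to 0.11 for Chrnb3. The chronic differences ran from -0.069 to 0.20 for Chrna3, -0.20 to 0.25 for Chrna5, -0.089 to 0.43 for Chrna6, -0.014 to 0.12 for Chrna7, -0.013 to 0.053 for Chrnb2 and -0.053 to 0.39 for Chrnb3. Relative to Th they ran from -0.26 to 0.017 for Chrna4, -0.41 to 0.040 for Chrna7 and -0.40 to 0.00882 for Chrnb2. The conditioning differences ran from -0.40 to 0.054 for Chrna6, -0.12 to 0.00881 for Chrna7, -0.018 to 0.072 for Chrnb2 and -0.38 to 0.037 for Chrnb3. Relative to Th they ran from -0.20 to 0.15 for Chrna7 and -0.086 to 0.26 for Chrnb2. The self-administration differences ran from -0.048 to 0.073 for Chrna4, -0.089 to 0.14 for Chrna5, -0.029 to 0.029 for Chrna7 and -0.13 to 0.099 for Chrnb3. Relative to Th they ran from -0.092 to 0.050 for Chrna4, -0.077 to 0.037 for Chrna5, -0.13 to 0.097 for Chrna7, -0.16 to 0.063 for Chrnb2 and -0.085 to 0.030 for Chrnb3.

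No paired analysis was possible because the columns of the table are numbered from 0 and had no stated link to the labels' replicate numbers, so the fit with a block by replicate was not run. The read depth is unknown, so the counting error of low genes such as Chrnb4 is not known either.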
